A study of Mus musculus with 6 samples.

Results

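The 10 genes described here, Tuba1a, Tuba1b, Tuba1c, Tuba4a, Tubb2a, Tubb2b, Tubb3, Tubb4b, Tubb5 and Tubb6, encode the main alpha- and beta-tubulins of the mouse. They were taken by name from the 33965 genes of the deposited table, 4 of them alpha and 6 of them beta, and all 10 had enough counts to be among the 19602 genes tested. The family was selected on measured values, because Tubb3 had one of the smallest p values among the genes that were lower in GB2-treated tumors in this same comparison. All GB2-PBS values of the 10 genes are therefore given as a description, without a test.

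Bulk RNA-seq was carried out on 6 tumors labelled MC38, a mouse colon carcinoma line, that had been inoculated under the skin of C57BL/6 mice. The groups were 3 tumors from mice given PBS (the vehicle control) and 3 from mice given GB2, a prodrug in which the STING agonist MSA-2 and artesunate, used as a TREM2 inhibitor, are joined by a disulfide bond that glutathione can cleave. The study's methods describe female mice bought at 6 weeks of age and give 10 mg/kg of GB2 for the MC38 model, without naming the dose of the sequenced tumors separately. The comparison asked how GB2 changes the RNA of a whole tumor, and a tumor was the unit of replication. The study describes its replicates as biological in general terms, and the labels do not say which mouse each tumor came from.

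Tubulin is the building block of microtubules. An alpha and a beta subunit form a dimer, dimers join end to end into protofilaments, and these make up the hollow tubes that carry cargo, shape the cell and form the mitotic spindle. The subunits are made from many closely related genes, called isotypes, that differ mostly in the acidic tail at the C-terminal end, where enzymes add or remove glutamate, glycine and tyrosine residues. Tubb3 (class III beta-tubulin) is best known as a neuronal isotype that is also made by many tumors, and its abundance has been studied in relation to taxanes. Cells tune the amount of tubulin mRNA to the amount of free tubulin: when free dimers are plentiful, the first amino acids of newly made tubulin are bound by TTC5, which recruits SCAPER and the CCR4-NOT complex to degrade the mRNA being translated.

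The sequence that this control reads lies at the start of the coding region, and it is shown here because all the genes carry it in a closely similar form. The first 24 coding bases are printed 5′ to 3′ from GENCODE vM21 transcripts (GRCm38), with the first 12 in capitals. Tubb3 starts at chr8:123411606-123411608 on the plus strand. The other start codons printed are at chr2:25224588-25224590 (Tubb4b), chr17:35838051-35838053 (Tubb5), chr13:34077927-34077929 (Tubb2a), chr13:34130231-34130233 (Tubb2b), chr15:98934333-98934335 (Tuba1b) and chr1:75219193-75219195 (Tuba4a), all on the minus strand.
Tubb3: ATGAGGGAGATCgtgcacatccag
Tubb4b: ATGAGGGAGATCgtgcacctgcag
Tubb5: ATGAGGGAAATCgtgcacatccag
Tubb2a: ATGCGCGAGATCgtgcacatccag
Tubb2b: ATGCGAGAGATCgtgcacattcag
Tuba1b: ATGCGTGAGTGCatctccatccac
Tuba4a: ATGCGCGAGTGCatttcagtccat
The 10 genes had 7 different versions of these first 12 bases, and Tubb3 and Tubb4b had the same one.

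The other end of the coding region is where the isotypes separate. The last 60 coding bases are printed with the stop codon in capitals, and the stop codons are at chr8:123421680-123421682 (Tubb3, plus strand), chr17:35834982-35834984 (Tubb5, minus strand) and chr2:25222308-25222310 (Tubb4b, minus strand).
Tubb3: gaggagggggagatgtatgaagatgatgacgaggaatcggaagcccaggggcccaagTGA
Tubb5: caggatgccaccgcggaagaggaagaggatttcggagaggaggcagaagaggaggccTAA
Tubb4b: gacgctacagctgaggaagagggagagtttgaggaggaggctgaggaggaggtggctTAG
In the next pair, capitals mark the 3 bases of the last 60 at which Tubb2a (stop codon at chr13:34074468-34074470) and Tubb2b (chr13:34127471-34127473), both on the minus strand, differ.
Tubb2a: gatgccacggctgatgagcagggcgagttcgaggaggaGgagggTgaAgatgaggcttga
Tubb2b: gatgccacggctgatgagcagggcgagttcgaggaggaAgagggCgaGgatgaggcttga

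These likenesses decide how well the values of each gene can be told apart. Over the whole coding region, Tubb3 was 81.2% identical in sequence to Tubb5, 82% to Tubb4b and 85.7% to Tubb6, while Tubb2a and Tubb2b were 96.5% identical and differed at 47 bases. Tuba1a and Tuba1b were 98.3% identical, and an alpha and a beta gene were 52.5% to 55.4% identical. Of the 150-base windows of the transcript used for each gene, none of those of Tubb3, Tubb5, Tubb6 or Tuba4a occurred in a transcript of another gene. For Tuba1a, Tuba1b and Tuba1c, 54.7%, 57.9% and 46.7% of the windows were also found in another gene, and for Tubb2a, Tubb2b and Tubb4b the share was 27.9%, 20.1% and 16.8%. Counts of these 6 genes may have been divided between copies. The split among Tuba1a, Tuba1b and Tuba1c and that between Tubb2a and Tubb2b are therefore uncertain. Tubb3, Tubb5, Tubb6 and Tuba4a showed no such sharing, by a check that covers only exact matches to annotated transcripts.

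**Figure D1:**
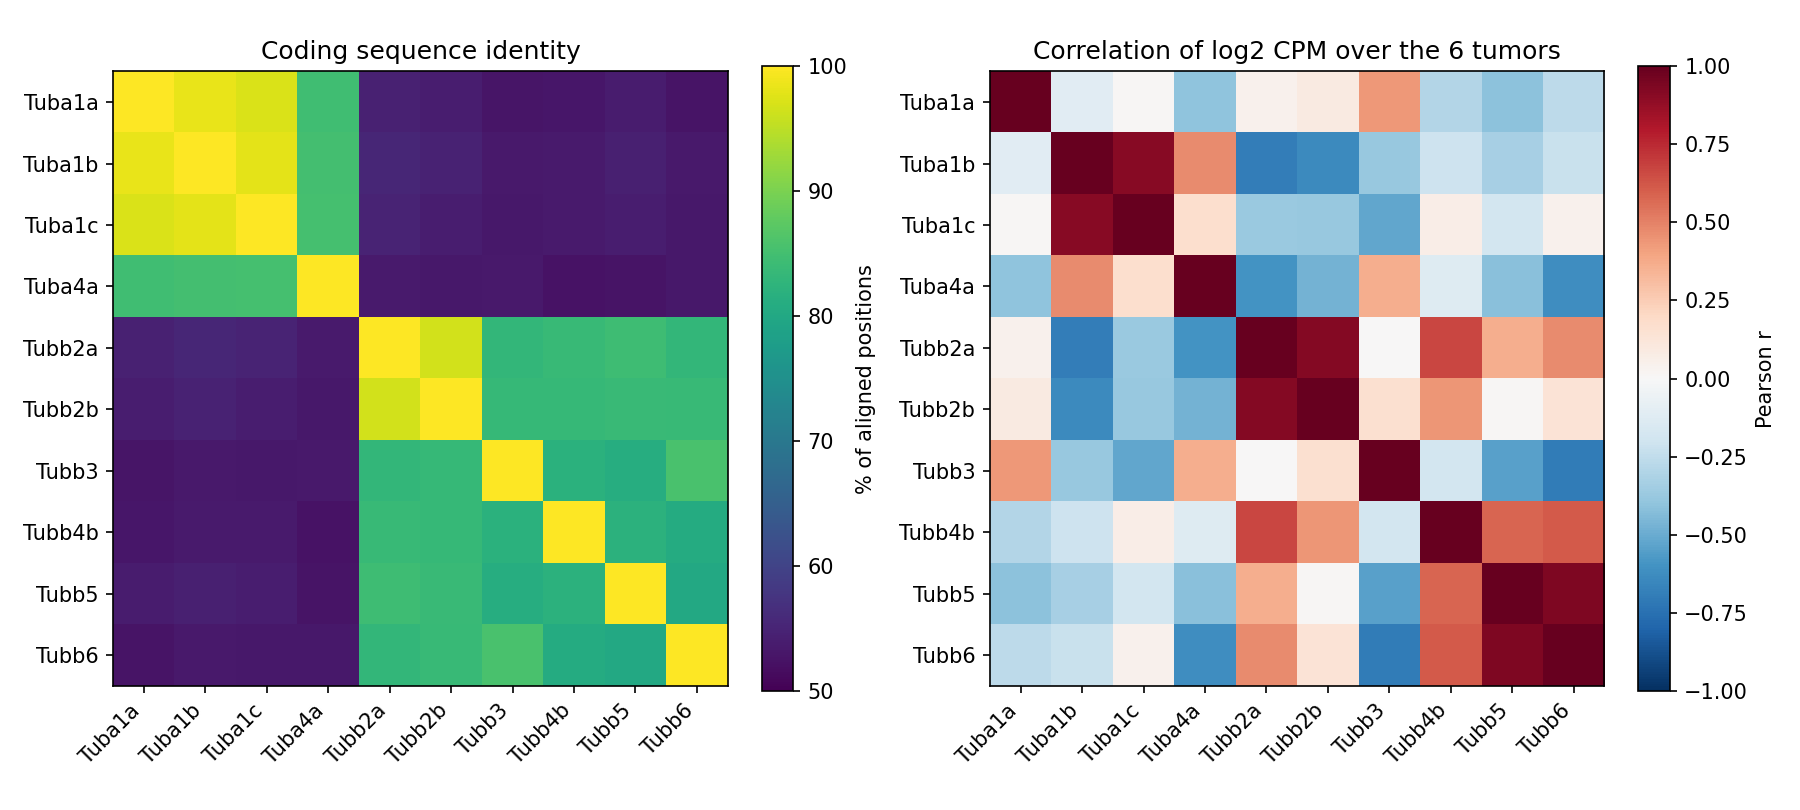
Left, percent identity of the coding sequences of the 10 tubulin genes in pairwise alignment. Right, Pearson correlation of their log2 CPM over the 6 tumors. Tuba1a, Tuba1b and Tuba1c form a block of at least 97.1% identity, whereas the correlations do not follow it (Tuba1b with Tuba1c 0.91, Tuba1a with Tuba1b -0.11).

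The libraries held 64764405 to 83690056 counts, and the GB2 libraries were the 3 largest. PBS tumor 1 stood apart on the first principal component of all genes, which held 34% of the variance, so the member values and medians that it moves most are also given without it. The cell type label was checked against marker genes. The epithelial list (Epcam, Krt8, Krt18, Krt19, Cdh1, Cldn7) summed to 2.6 to 7.74 CPM per tumor, and 8 genes of colon epithelium summed to 7.27 to 16 CPM, with Cdx1, Cdx2 and Gpa33 under 12 counts in every tumor. In contrast, 13 genes of pigment cells, a list added after Sox10 had been seen at 331 to 764.5 CPM, summed to 12632 to 20451 CPM. Among them, Dct had 4097 to 8046 CPM, Pmel 1732 to 4417 CPM and Tyrp1 2421 to 5082 CPM. These levels go against a colon carcinoma in all 6 tumors, so they are called the tumors labelled MC38. The study also grew B16F10 melanomas in the same mouse strain, and where the pigment cell RNA came from was not tested. The Schwann cell list, which shares Sox10 with the pigment cell list, summed to 1058 to 1547 CPM, and the T cell list to 0.368 to 5.29 CPM. The summed pigment cell level overlapped between the groups (PBS 12632 to 17920 CPM, GB2 14404 to 20451 CPM), and none of the 13 genes passed the test (smallest adjusted p = 0.757).

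**Figure D2:**
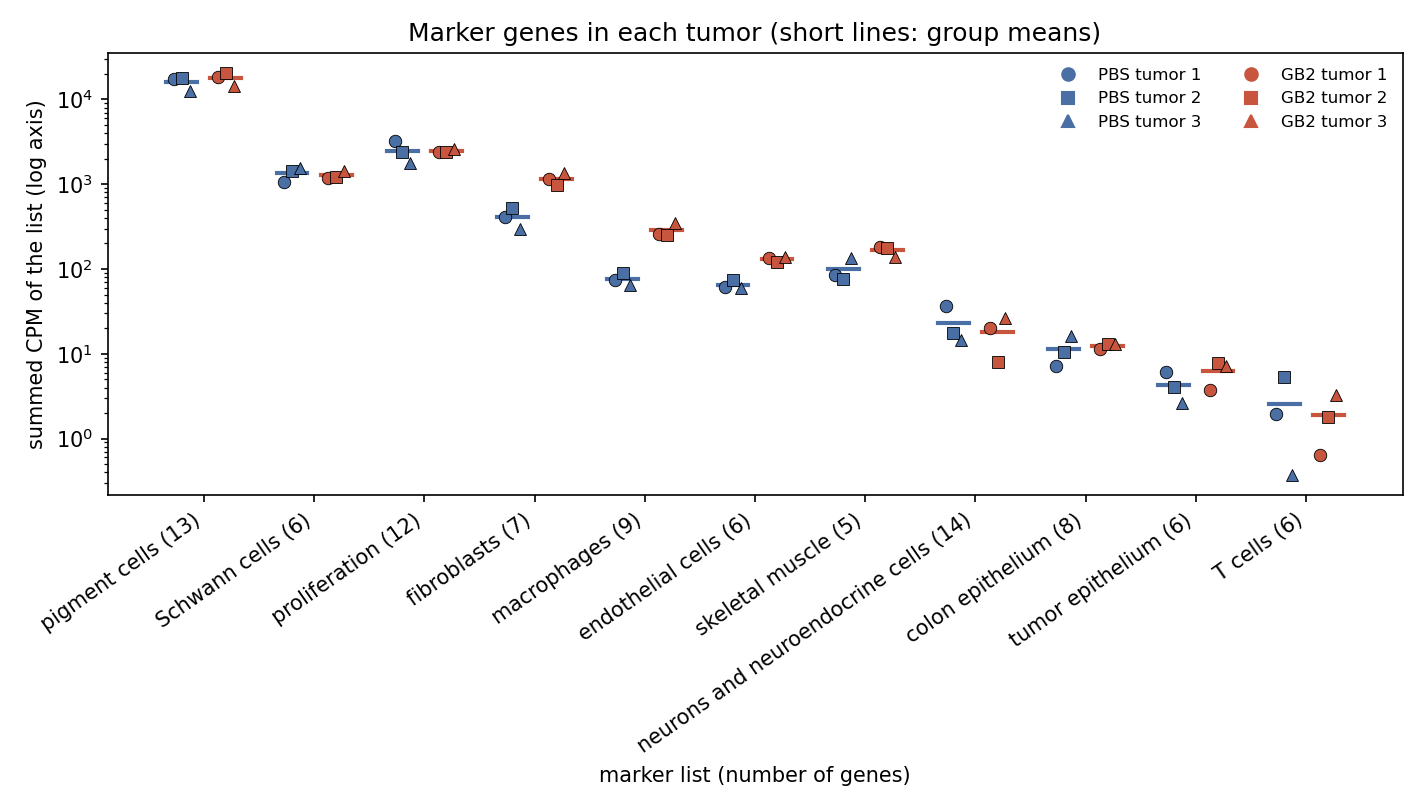
Summed CPM of each marker list (number of genes in parentheses) in the 3 PBS and 3 GB2 tumors, on a log axis, with group means as short lines. Pigment cell genes sum to at least 12632 CPM in every tumor and both epithelial lists at or below 16 CPM, and the macrophage, fibroblast, endothelial and skeletal muscle lists are higher in each GB2 tumor than in any PBS tumor.

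The tubulins were among the abundant mRNAs of these tumors. On the FPKM scale, which divides by transcript length and so allows genes to be compared, Tuba1b had the highest mean over the 6 tumors (826.3 ± 84.2, SD), followed by Tuba1a (334.6 ± 43.2), Tubb5 (330.4 ± 63), Tuba1c (200.2 ± 20.2), Tubb4b (159 ± 18.7) and Tubb3 (72.3 ± 20.9). Tubb6 (38.7 ± 13.4), Tuba4a (23.4 ± 5.27), Tubb2a (17.2 ± 5.49) and Tubb2b (5.61 ± 1.09) had the lowest levels. Tubb3 was above 98.2% of all genes in the table. Neighbours in this order were fully separated over the 6 tumors at 3 places, Tuba1b above Tuba1a, Tubb4b above Tubb3, and Tubb2a above Tubb2b. The first and last of these pairs share 150-base windows, so their levels may depend on how counts were divided. Tuba1a and Tubb5 could not be ordered, since Tuba1a was the higher in 3 of the 6 tumors.

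Among the beta-tubulins, Tubb3 was the gene whose PBS and GB2 tumors did not overlap. Tubb3 (ENSMUSG00000062380, chromosome 8, 124138163 to 124148754 on the plus strand in the table's own positions) had 201.9, 184.3 and 160.8 CPM in PBS tumors 1 to 3, and 115.4, 89.0 and 104.2 CPM in GB2 tumors 1 to 3, where CPM is the count as a share of the TMM-scaled library total. All GB2 tumors lay below all PBS tumors, with a gap from 115.4 to 160.8 CPM. The mean was 182.3 ± 20.6 CPM (SD, n = 3) after PBS and 102.9 ± 13.3 CPM (n = 3) after GB2, which is 0.564 of the PBS mean and a log2 fold change of -0.83 (SE 0.18). In counts the groups were likewise separate despite the larger GB2 libraries, with 11937, 12985 and 11366 after PBS and 9690, 7401 and 8857 after GB2. FPKM values were 92.6, 94.9 and 83.7 after PBS and 61.4, 45.5 and 55.4 after GB2. Of all genes tested, 6.68% had every GB2 tumor below every PBS tumor. No inference is drawn from this share, since the comparison chose the gene. The log2 fold change of Tubb3 stayed between -0.91 and -0.73 over the 15 alternative settings and was -0.73 without PBS tumor 1.

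**Figure D3:**
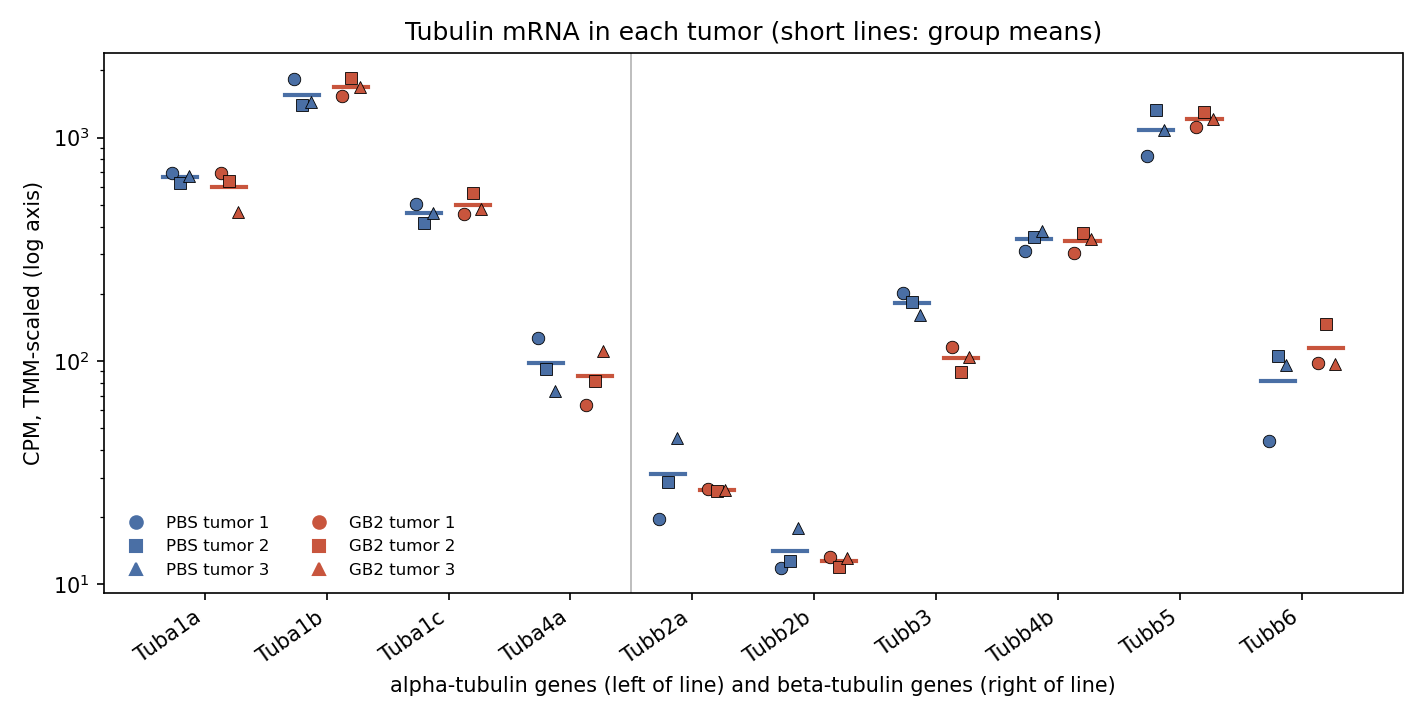
TMM-scaled CPM of the 10 tubulin genes in each tumor, on a log axis, with PBS tumors in blue, GB2 tumors in red and group means as short lines. Tubb3 is the gene at which the 2 groups do not overlap (89.0 to 115.4 against 160.8 to 201.9 CPM). PBS tumor 1 is the lowest of the 6 tumors for Tubb2a, Tubb2b, Tubb5 and Tubb6.

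Tubb5, the broadly expressed isotype and the most abundant beta-tubulin in these tumors, had 824.4, 1333 and 1087 CPM in the PBS tumors and 1116, 1301 and 1206 CPM in the GB2 tumors. The groups overlapped, and the low PBS mean (1081 ± 254.3 against 1208 ± 92.5 CPM) came from PBS tumor 1. The log2 fold change was 0.16 (SE 0.22). It was 0.01 without PBS tumor 1 and 0.34 without PBS tumor 2.

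Tubb6, another beta isotype found in many non-neuronal cells, had 43.6, 105.4 and 96.1 CPM in the PBS tumors and 97.8, 146.4 and 96.9 CPM in the GB2 tumors. Its log2 fold change of 0.48 (SE 0.35) was the highest of the 10 genes, but PBS tumor 1 was far below the other 5 tumors, which had 96.1 to 146.4 CPM. Leaving out PBS tumor 1 gave 0.19, leaving out GB2 tumor 2 gave 0.25, and the other 4 omissions gave 0.58 to 0.70. Tubb4b, a widely expressed isotype also used in cilia, had 312.2, 358.4 and 382.2 CPM in PBS and 304.9, 373.1 and 351.2 CPM after GB2. Its log2 fold change of -0.03 (SE 0.17) changed sign in 5 of the 15 alternatives, so it has no stable direction.

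Tubb2a and Tubb2b, which are abundant in the nervous system, had the lowest levels of the 10 genes. Tubb2a had 19.6, 28.8 and 45.1 CPM in the PBS tumors and 26.8, 26.2 and 26.4 CPM in the GB2 tumors. The spread between PBS tumors (coefficient of variation 41.3%) was far larger than that between GB2 tumors (1.12%). Tubb2b had 11.8, 12.7 and 17.9 CPM in the PBS tumors and 13.3, 11.9 and 13.1 CPM in the GB2 tumors. Both were highest in PBS tumor 3, and their log2 fold changes of -0.24 (SE 0.29) and -0.15 (SE 0.23) became 0.13 and 0.06 without that tumor. Without PBS tumor 1, where both were lowest, they were -0.47 and -0.25.

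Of the alpha-tubulins, Tuba1b had 1827, 1407 and 1442 CPM in the PBS tumors and 1540, 1859 and 1681 CPM in the GB2 tumors. Tuba1c had 506.4, 415.2 and 459.8 CPM in PBS and 457.2, 562.8 and 478.7 CPM in GB2 tumors. These genes, which serve dividing and many other cells, varied together over the 6 tumors, and each had a log2 fold change of 0.12 (SE 0.19 and 0.18). They share 150-base windows, so their counts may have been divided between them. Leaving out a tumor gave 0.05 to 0.26 for Tuba1b and 0.03 to 0.21 for Tuba1c, with the highest value of each without PBS tumor 1. Tuba1a, the isotype that is prominent in developing neurons, had 697.3, 627.4 and 672.3 CPM in PBS and 697.5, 636.6 and 466.8 CPM in GB2 tumors. Only GB2 tumor 3 lay outside the PBS range by a wide margin, the log2 fold change was -0.15 (SE 0.20), and it was 0.00 without that tumor and -0.27 without GB2 tumor 1. Tuba4a, whose coding sequence is 84.7% to 85.2% identical to those of the 3 Tuba1 genes, had 126.8, 91.8 and 73.7 CPM in PBS and 63.8, 81.0 and 111.3 CPM after GB2. Its log2 fold change of -0.19 (SE 0.28) became 0.06 without PBS tumor 1 and -0.35 without PBS tumor 3. Omitting GB2 tumor 1 gave -0.02, and omitting GB2 tumor 3 gave -0.43.

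As a family, the 10 genes did not move in one direction. The log2 fold change was above 0 for 4 and below 0 for 6 (51.7% of all genes tested were below 0), their median was -0.09 against -0.02 over all genes tested, and no gene reached a 2-fold change. The groups overlapped at 9 of the 10, as they did at 84.7% of all genes tested. Tubb3 lay apart from the other members, whose log2 fold changes ran from -0.24 to 0.48. Leaving out PBS tumor 3 moved the median to 0.07, and 5 of the 10 genes changed sign under at least 1 of the 15 alternatives, while Tuba1b, Tuba1c, Tubb3, Tubb5 and Tubb6 did not.

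**Figure D4:**
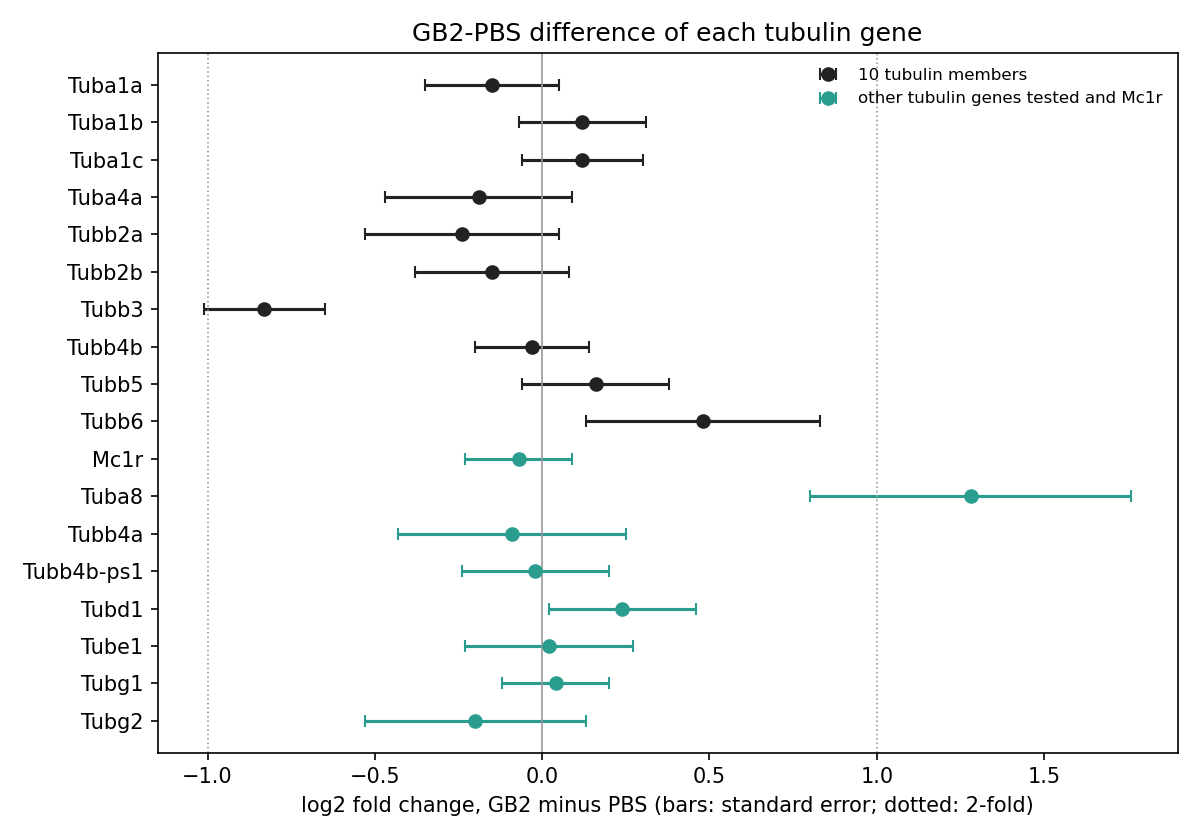
Log2 fold change, GB2 minus PBS, of the 10 tubulin genes (black) and of the other tubulin genes tested with Mc1r (green), with the standard error of the edgeR fit as bars and dotted lines at 2-fold. In this fit, Tubb3 (-0.83) and Tuba8 (1.28) lie farthest from 0.

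The make-up of the beta-tubulin mRNA differed accordingly. Tubb3 made up 20%, 13.4% and 12.8% of the summed FPKM of the 6 beta genes in PBS tumors 1 to 3, compared with 10.2%, 6.81% and 8.6% in GB2 tumors 1 to 3. The means were 15.4 ± 3.99% and 8.54 ± 1.69% (SD, n = 3 each), a difference of -6.86 percentage points, which was -4.56 without PBS tumor 1. Tubb5 made up 49.6 ± 4.31% in PBS and 55.8 ± 0.32% in GB2 tumors, Tubb4b 26.1 ± 2.43% and 25.2 ± 0.974%, and Tubb6 5.02 ± 1.48% and 7.12 ± 1.3%. The ratio of Tubb3 to Tubb5 in FPKM was 0.436, 0.246 and 0.264 after PBS and 0.184, 0.122 and 0.154 after GB2, so that here too the groups did not overlap. These shares rest on the same Tubb3 values that chose the family.

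The split among Tuba1a, Tuba1b and Tuba1c is uncertain, since they share 150-base windows. In the deposited values, the alpha-tubulin mRNA was mostly Tuba1b in every tumor. Its share of the summed FPKM of the 4 alpha genes was 58.1 ± 1.97% in PBS and 61.1 ± 3.34% in GB2 tumors, followed by Tuba1a with 26 ± 1.82% and 22.5 ± 4.32%, Tuba1c with 14.1 ± 0.556% and 14.8 ± 0.654% and Tuba4a with 1.83 ± 0.335% and 1.57 ± 0.509%. The summed alpha FPKM was 1385, 1255 and 1326 after PBS (1322 ± 65) and 1417, 1539 and 1384 after GB2 (1447 ± 81.7), groups that met at 1384 and 1385. In TMM-scaled CPM the alpha sums were 2782 ± 328.9 and 2878 ± 226. The summed beta FPKM was 608.6 ± 129.1 in PBS and 637.7 ± 32.8 in GB2 tumors, a difference far within the spread of the PBS tumors. Its direction depends on PBS tumor 1, since PBS tumors 2 and 3 (709.7 and 652.8) were both above the GB2 mean. The ratio of summed alpha to summed beta FPKM was 2.26 ± 0.643 and 2.27 ± 0.105. PBS tumor 1, with the lowest beta sum (463.2), had the highest ratio (2.99). PBS tumors 2 and 3 had 1.77 and 2.03, below each GB2 tumor (2.35, 2.31 and 2.15). The near-equal mean ratios thus depend on PBS tumor 1.

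**Figure D5:**
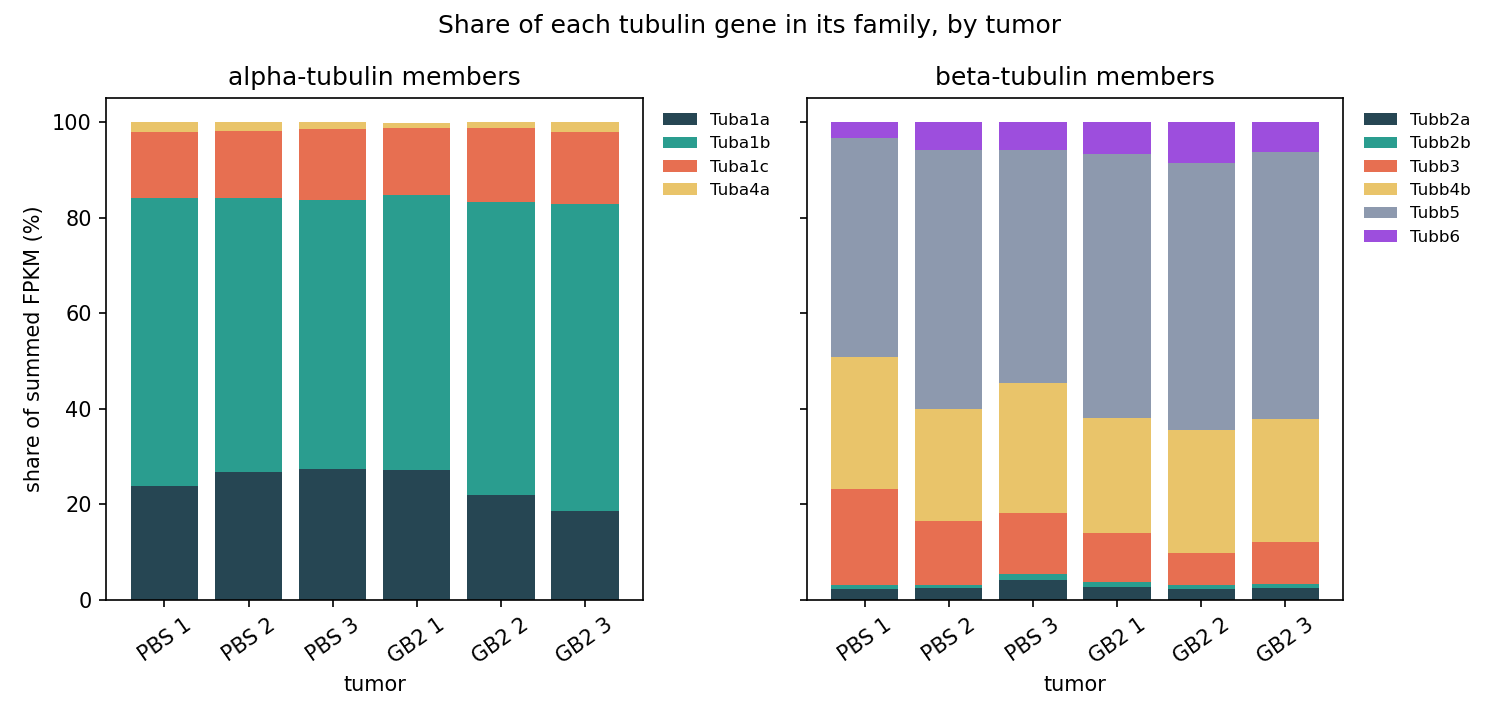
Share of each gene in the summed FPKM of the 4 alpha genes (left) and the 6 beta genes (right), for each tumor. The Tubb3 band is 12.8% to 20% in PBS tumors and 6.81% to 10.2% in GB2 tumors, and Tuba1b is the widest alpha band in all 6 tumors. The split among Tuba1a, Tuba1b and Tuba1c is uncertain.

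Over the 6 tumors, which share library and scaling, some genes varied together. The Pearson correlation of log2 CPM was 0.93 for Tubb5 and Tubb6, 0.92 for Tubb2a and Tubb2b and 0.91 for Tuba1b and Tuba1c. Over the 5 tumors other than PBS tumor 1 it was 0.63, 0.95 and 0.93. Tubb3 had no partner of this kind among the 10 genes, with its highest value at 0.43 (Tuba1a) and its lowest at -0.70 (Tubb6). Tubb2a and Tubb2b, like Tuba1b and Tuba1c, share 150-base windows, so their counts may have been divided between copies. The part of this sharing in their correlations was not tested. In the whole table the 5 genes most like Tubb3 over the 6 tumors were Ppil4 (0.994), Trim45 (0.985), Mlycd (0.985), Gm11889 (0.984) and Brdt (0.983). Their log2 fold changes were -0.11, -0.66, -0.27, -0.80 and -1.01, and Gm11889 and Brdt had mean levels of only 0.554 and 0.753 CPM. With 6 points and 19602 genes such high values describe these tumors only.

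The genes on either side of Tubb3 had differences near 0. Mc1r, the melanocortin receptor of pigment cells, ends 679 bases before Tubb3 on the same strand in the table (chromosome 8, 124133846 to 124137483), and in human pigment cells transcripts that run from MC1R into TUBB3 are known. Mc1r had 146.6, 132.1 and 128.9 CPM in PBS and 115.9, 125.7 and 146.2 CPM after GB2. Its log2 fold change was -0.07 (SE 0.16, edgeR quasi-likelihood test, adjusted p = 0.919). Def8, which follows 1511 bases after Tubb3, had a log2 fold change of 0.07 (SE 0.25, adjusted p = 0.946). A transcript that joins Mc1r and Tubb3 cannot be seen in counts per gene.

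Tubb3 is a neuronal marker, so the neuronal and neuroendocrine list was read beside it. Its 14 genes summed to 36.5, 17.6 and 14.6 CPM in PBS and 20.3, 8.08 and 26.4 CPM in GB2 tumors, of which Uchl1 alone gave 19.2, 11.4 and 11 CPM and 5.98, 4.18 and 12.1 CPM. Snap25, the synaptic SNARE protein, had 2.94 CPM in PBS tumor 1, 4.12 in GB2 tumor 1 and 2.92 in GB2 tumor 3, and no count in the other 3 tumors. The neurofilament gene Nefl was likewise detected in these 3 tumors and had no count in the others. Uchl1, Prph, Syp, Rbfox3 and Chga were detected in all 6 tumors. Uchl1 and Prph had log2 fold changes of -0.90 (SE 0.43) and -0.89 (SE 0.50), below 0 like Tubb3, and 10 of the 14 genes were above 0. Of the latter, Nefl, Nefm, Ina, Snap25, Chgb and Elavl4 had no count in PBS tumors 2 and 3 and GB2 tumor 2. Their signs rest on PBS tumor 1 against GB2 tumors 1 and 3 (SE 1.75 to 2.09), and Syp was at 0.00. Chga, chromogranin A, had 0.423, 0.199 and 0.0566 CPM after PBS and 0.512, 0.697 and 0.423 CPM after GB2 (log2 fold change 1.27, SE 0.74). The part of neuronal RNA in the Tubb3 difference was not tested. None of the 14 genes passed the test (smallest adjusted p = 0.757).

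Lists of other cell types moved with the treatment group. The 9 macrophage genes summed to 73.5, 89.2 and 64.2 CPM in PBS and 260.6, 254.9 and 351.9 CPM in GB2 tumors, and each of the 9 was higher in every GB2 tumor than in any PBS tumor, against 8.61% of all genes tested. The same held for 7 of 7 fibroblast genes, whose sum was 409.9 ± 115.2 in PBS and 1164 ± 185.7 CPM in GB2 tumors, and for 5 of 6 endothelial genes (65.5 ± 7.69 and 131.2 ± 8.96 CPM). In edgeR the smallest adjusted p in these lists was 0.166, so none was called, and the medians of the log2 fold changes were 1.95, 1.45 and 1.16. The 12 proliferation genes summed to 2466 ± 705.5 CPM in PBS and 2473 ± 134.3 CPM in GB2 tumors. By tumor the sums were 3206, 2389 and 1802 CPM in PBS and 2414, 2379 and 2627 CPM in GB2 tumors. The near-equal means thus depend on the high sum of PBS tumor 1. The part of these cells in the lower Tubb3 level was not tested, and in a bulk tumor fewer cells that make Tubb3 and less Tubb3 mRNA per cell cannot be told apart.

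Per length, some of the other tubulin genes overlapped the lowest member, Tubb2b (4.4 to 7.6 FPKM), among them Tubd1 (3.79 to 6.35 FPKM) and Tubb4b-ps1 (6.63 to 8.78 FPKM). Tubg1 was higher (44.5 to 55.2 FPKM) and lay within the range of Tubb6 (15.3 to 57.3 FPKM). By edgeR, 0% of the 19602 genes met both limits for a call, a Benjamini-Hochberg adjusted p under 0.05 and at least a 2-fold change. Tubg1, the gamma-tubulin that nucleates microtubules at the centrosome, had 107.8 to 129.7 CPM in PBS and 110.6 to 128.5 CPM in GB2 tumors (log2 fold change 0.04, SE 0.16, adjusted p = 0.952). Its paralog Tubg2 had 9.47, 21.8 and 21.5 CPM in PBS and 15.7, 16.3 and 13.9 CPM in GB2 tumors. Tubd1 and Tube1, the delta- and epsilon-tubulins of centrioles, had 9.17 to 13.3 CPM and 11.4 to 19.2 CPM over the 6 tumors. Tubb4a, a neuronal and oligodendrocyte isotype, had 1.36 to 2.2 CPM. Tubb4b-ps1, a pseudogene that shares 150-base windows with Tubb4b, had 8.92 to 12.3 CPM, which may include reads of Tubb4b.

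Tuba8, an alpha-tubulin of muscle and testis, had 13, 18 and 24 counts in the PBS tumors and 42, 58 and 67 counts in the GB2 tumors. Every GB2 tumor was above every PBS tumor, at 0.5, 0.697 and 0.788 CPM against 0.22, 0.255 and 0.34 CPM. This held for 8.61% of all genes tested. The log2 fold change was 1.28 (SE 0.48), and it was 0.87 by limma on log2(FPKM + 0.1) and 0.21 on log2(FPKM + 1), a scale that understates low genes. With counts divided by 4 the gene was no longer tested. It did not pass the test over all genes (edgeR quasi-likelihood test, adjusted p = 0.649), and its unadjusted p of 0.0296 falls in a class that held 3.74% of all genes tested (higher, unadjusted p under 0.05, at least 2-fold). The 5 skeletal muscle genes summed to 85.9, 77.2 and 136.4 CPM after PBS and 182.6, 176.1 and 140.2 CPM after GB2. Every GB2 sum was above every PBS sum, though GB2 tumor 3 (140.2 CPM) lay just above PBS tumor 3 (136.4 CPM). The same separation held for 4 of the 5 genes, against 8.61% of all genes tested. The part of the muscle genes in the Tuba8 difference was not tested. Tubb1, the platelet isotype, reached 12 and 16 counts in 1 PBS and 1 GB2 tumor and had no count in the other PBS tumors, and Tuba3a, Tuba3b and Tubal3 stayed under 12 counts in every tumor. Tubb4b-ps2 reached 12 counts in PBS tumor 3 and at most 6 elsewhere.

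The genes that fold, modify, organise and use tubulin were read as 6 lists with 104 genes, of which 100 were tested. Of these, 45 had a log2 fold change above 0 and 55 below 0, and none was called. At an unadjusted p under 0.05, 1 was higher (4.69% of all genes tested) and 0 were lower (2.24%), so the shares were below those of the whole table. The gene was Vash1, which makes the tubulin carboxypeptidase vasohibin-1 that removes the terminal tyrosine of alpha-tubulin. It had 1.08, 1.66 and 1.99 CPM in PBS and 2.57, 3.22 and 3.09 CPM in GB2 tumors (log2 fold change 0.91, SE 0.34, adjusted p = 0.641). Vash1 is also known as an endothelial gene, and 5 of the 6 endothelial genes were likewise higher in every GB2 tumor, as given above. The part of endothelial cells in the Vash1 difference was not tested.

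In the list of tubulin tail and lysine modification (19 tested, median log2 fold change -0.01, which ran from -0.07 to 0.21 when a tumor was left out, with 0.21 without PBS tumor 3 and 0.16 without PBS tumor 2), Ttl, the ligase that puts the tyrosine back, had 9.81, 9.58 and 13 CPM in PBS and 17, 14.9 and 14 CPM in GB2 tumors (log2 fold change 0.50, adjusted p = 0.731). Ttll9, a polyglutamylase, was below 1 CPM in all tumors, with a log2 fold change of -1.66 (SE 0.75, adjusted p = 0.750). Svbp, the partner of the vasohibins, had 40.2 CPM in PBS tumor 1 and 15.3 to 18.2 CPM in the other 5 tumors (log2 fold change -0.49, adjusted p = 0.796, and 0.12 without PBS tumor 1).

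Tubulin folding needs prefoldin, the CCT chaperonin and the tubulin cofactors. Of the 21 genes, 18 had a log2 fold change below 0 and none had an unadjusted p under 0.05. The median was -0.27. PBS tumor 1 had a summed level of 7327 CPM against 4025 to 5052 CPM in the other 5 tumors, and without it the median was 0.06. Tbca, cofactor A, which binds beta-tubulin, had 197.4 CPM in PBS tumor 1 and 44.5 to 55.5 CPM elsewhere (log2 fold change -0.98, SE 0.55, adjusted p = 0.757), and the prefoldin subunit Pfdn6 had 84.2 CPM there and 30.4 to 39 CPM elsewhere (-0.68, adjusted p = 0.757). Without PBS tumor 1 these were 0.07 and -0.11. Tbcd and Tbce, the cofactors that act on beta- and alpha-tubulin, had log2 fold changes of 0.15 (adjusted p = 0.870) and 0.10 (adjusted p = 0.902), or 0.08 and 0.03 without PBS tumor 1.

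None of the 3 genes of the control that reads the start of the coding region passed the test. Ttc5 had 33.9, 36 and 38.9 CPM in PBS and 36.5, 37.4 and 33.1 CPM in GB2 tumors (log2 fold change -0.03, SE 0.16, adjusted p = 0.970). Scaper had log2 fold change 0.01 (SE 0.20, adjusted p = 0.987), and Cnot11, the CCR4-NOT subunit, had 81.6, 51.6 and 51.2 CPM in PBS and 39.7, 42.5 and 55.8 CPM in GB2 tumors (-0.42, SE 0.24, adjusted p = 0.758), and -0.15 without PBS tumor 1.

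Of the 29 microtubule-associated and destabilising genes tested, 15 were above 0 and 14 below 0, with a median of 0.04, which was -0.09 without GB2 tumor 2, -0.04 without GB2 tumor 1 and -0.02 without PBS tumor 2. Stmn1, the phosphoprotein stathmin that sequesters tubulin dimers, had 758.1 CPM in PBS tumor 1 and 151.7 to 217.5 CPM in the other 5 tumors (log2 fold change -0.88, SE 0.56, adjusted p = 0.767), and Tacc3, a spindle protein, had 268.5 CPM there and 92.7 to 110.5 CPM elsewhere (-0.60, adjusted p = 0.773). Without PBS tumor 1 these were 0.17 and 0.05. Ckap5, the microtubule polymerase, had 159.1, 183.4 and 201.3 CPM in PBS and 206.1, 231.2 and 211.3 CPM in GB2 tumors (0.25, SE 0.17, adjusted p = 0.773). Tacc2 had a log2 fold change of 0.30 (adjusted p = 0.789).

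In the gamma-tubulin ring complex, the template of new microtubules, 7 of 10 genes were above 0 and the median was 0.19, or 0.11 without PBS tumor 1. Tubgcp4, a ring subunit, had 15.9, 28.3 and 27.3 CPM in PBS and 35.3, 36.6 and 32.4 CPM in GB2 tumors (log2 fold change 0.55, SE 0.25, adjusted p = 0.746, and 0.34 without PBS tumor 1), and Nedd1, which brings the ring to centrosomes, had 32.4 to 36.4 CPM and 42 to 44.1 CPM (0.34, SE 0.15, adjusted p = 0.739). Both had all GB2 tumors above all PBS tumors, as had 8.61% of all genes tested, and neither passed the test. Mzt1 (-0.27, adjusted p = 0.808) and Tubg2 (-0.20, adjusted p = 0.893) were below 0, at 0.01 and -0.49 without PBS tumor 1. Of the 18 transport motor genes, 10 were above 0, with a median of 0.03 (0.01 to 0.09 when a tumor was left out). Kif3b (0.37, adjusted p = 0.779) and Dync1li1 (0.27, adjusted p = 0.787) had the smallest p among the genes above 0. Dynll1, a dynein light chain, had 208.4, 161 and 119 CPM in PBS and 121.9, 101.9 and 126.6 CPM in GB2 tumors (-0.48, SE 0.23, adjusted p = 0.757), and Kif3a had a log2 fold change of -0.31 (adjusted p = 0.789). Without PBS tumor 1 these were -0.25 and -0.04, and Kif3b was 0.20.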

How the data were processed

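RNA of 6 tumors, 3 per group by the labels, was sequenced as poly-A selected, stranded, paired-end libraries. For each gene the authors deposited estimated counts, which are whole numbers not scaled between tumors, and FPKM values, which are divided by transcript length and library total. The submitters' processing notes name cutadapt 1.9, HISAT2 2.2.1, StringTie 2.1.6, DESeq2, edgeR and mm10. The table places Tubb3 from 124138163 to 124148754 on chromosome 8, whereas its GRCm38 start codon is at 123411606, so table positions and GRCm38 positions are kept apart. Low counts piled up at 4 (7017 values, against 5446 of 1, 4996 of 2, 2984 of 3 and 2017 of 5), so a count may not be 1 read pair, which was not tested.

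Testing of the estimated counts used edgeR 4.0.16 under R 4.3.3 (TMM, filterByExpr with a minimum count of 10, glmQLFit, glmQLFTest, Benjamini-Hochberg adjustment over 19602 genes). A call needed both an adjusted p under 0.05 and at least a 2-fold change. The biological coefficient of variation was 40.5%, which limits what 3 tumors per group can show. The p-values measure the spread between these tumors. Log2 CPM used a prior count of 2. Alternatives were DESeq2 1.42.0, limma 3.58.1 on FPKM, other scalings and filters, counts divided by 4, a replicate block and leaving out each tumor. The computations were tested on simulated data. The labels give no batch.

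Named were the 10 genes, other tubulins with at least 12 counts in some tumor, the 2 smallest p in each direction of each microtubule list, Mc1r and the 5 genes most correlated with Tubb3. Genes named from marker lists, and Def8, were chosen after their values were seen. The members, the lists and these rules were chosen with earlier results of these data known, and the pigment cell and colon lists were added afterwards. A planned comparison of protein sequences was replaced by coding sequences of GENCODE vM21 (the transcript with the longest coding region of each gene), aligned with Biopython 1.88. The 150-base window is the stated read length.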

Additional observations from a re-analysis of the deposited data

How the results depend on the processing

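DESeq2 called 385 genes (352 higher, 33 lower) where edgeR called 0 of 19602. None of the 385 was another tubulin or a gene of the microtubule lists, and 7 macrophage and 6 fibroblast markers were among them. Calls are not read for the 10 members, since none reached the 2-fold change that a call needs. At an unadjusted p under 0.05, edgeR had 920 higher and 440 lower genes. The cause of the difference between the tools was not tested. The other alternatives, leaving out a tumor included (0 to 0), called 0 genes. The median log2 fold change of the 10 tubulins, -0.09, was 0.00 by limma on log2(FPKM + 1) and 0.00 on log2(FPKM + 0.1), and ran from -0.10 to 0.07 when a tumor was left out. Calls among the microtubule lists and the other tubulins were 0 under each of the 15 alternatives, and those for the other tubulins were added after seeing the data. The Tubb3 share difference of -6.86 percentage points was -5.04 from CPM and ran from -8.14 to -4.56 when a tumor was left out. The labels do not say whether the replicate numbers pair tumors across the groups. Deviations of tumors with the same number correlated at 0.0313, 0.154 and -0.245 across genes, values that cannot settle this without a reference spread. With the replicate block, edgeR called 0 genes and Tubb3 had a log2 fold change of -0.83. The members all had at least 698 counts in every tumor, and the parts of tumor spread and of error in the estimated counts were not separated.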
